A study of Mus musculus with 12 samples.

Results

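A set of 10 genes of extracellular purine signaling were followed in mouse bone marrow-derived macrophages (BMDMs), which are macrophages grown in culture from bone marrow with macrophage colony-stimulating factor. They are the ATP-gated channels *P2rx4* and *P2rx7*, the nucleotide receptors *P2ry2*, *P2ry6*, *P2ry12*, *P2ry13* and *P2ry14*, the cell surface nucleotidases *Entpd1* (CD39) and *Nt5e* (CD73), and the cation channel *Trpm2*. The genes were found by matching the Ensembl identifiers of the count table to these symbols, and they make up 10 of the 48526 genes in the table. The symbols were picked with earlier results for these samples in view. *Trpm2* was chosen by its interaction value for both treatments in those results, and it is therefore described here without a test. For the others no single measured value set the choice, but their p-values belong to genes picked with these data known.

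Cells came from 3 female C57Bl/6J mice, 6 to 20 weeks old, with no engineered allele named in the labels. On day 7 of culture, each mouse provided a culture without treatment and cultures that received, for 16 hr, 100 ng/mL Wnt3a, a ligand that activates Wnt signaling, 100 pg/mL IL-4, a cytokine of type 2 immunity, or both. Each mouse thus gave 1 RNA-seq sample to each of 4 groups. Total counts were between 15381184 and 17031873 in the untreated samples and between 13342492 and 17113982 in the IL-4 samples.

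Both columns that contain Wnt3a in their labels held reads in common within a mouse. There, 0 of 48526 genes had a Wnt3a count lower than 1 or higher than 2 times the count of the column with both agents, whereas 6681 to 8625 genes broke these limits when the columns came from different mice. Values are therefore given for the parts that can be solved from the columns. Subtracting the column with both agents from the Wnt3a column gave the difference, and subtracting the difference in turn from the column with both agents gave the remainder. Under this solution both parts came from Wnt3a-treated cells and 1 of them also received IL-4, but the labels do not say which. The difference totalled 14171994 to 17453377 counts per mouse and the remainder 15707213 to 16998867, so that the depth was close to that of the other groups.

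ATP and other nucleotides that leave stressed or dying cells act on neighboring cells through P2X channels, which open on binding ATP, and P2Y receptors, which signal through G proteins. CD39 cleaves ATP and ADP to AMP, and CD73 turns AMP into adenosine, which acts on its own receptors. In macrophages, P2X7 is best known for starting NLRP3 inflammasome assembly and IL-1β release. TRPM2 is a calcium-permeable channel that opens on binding ADP-ribose and is linked to oxidative stress.

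Of the 10 genes, 9 had enough counts for a test across all genes or a fitted value (at least 10 counts in at least 3 of 12 libraries, as did 12421 genes), and *Nt5e* did not. Levels are given as CPM, the count relative to the TMM-scaled library size, and levels of different genes are compared as CPM per kb of exon. In untreated cells the uridine diphosphate receptor gene *P2ry6* had the highest level of the 10, with 88.4 ± 9.39 CPM per kb (SD, n = 3 mice). It was followed by *P2rx4* (61.2), *Entpd1* (40.7), *P2rx7* (24.4) and *P2ry2* (7.23). Lower still were *Trpm2* (2.04), *P2ry13* (1.97), *P2ry14* (1.46) and *P2ry12* (0.595), and *Nt5e* was at 0.0046. In untreated cells the samples of neighbors in this order did not overlap, although *Trpm2* and *P2ry13* were close, with ranges from 2.03 to 2.05 and from 1.93 to 2.02 CPM per kb.

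The order was alike in the other groups except in its lower part and at its top. In IL-4-treated cells *P2ry14* stood above *Trpm2* and *P2ry13*, which overlapped at 1.17 ± 0.163 and 1.06 ± 0.0583 CPM per kb (SD, n = 3). In the difference *P2ry6* (77.0 ± 7.11) and *P2rx4* (75.6 ± 6.40) overlapped, and *P2ry14* (5.01 ± 0.388) and *P2ry13* (3.91 ± 0.783) overlapped above *Trpm2*. In the remainder *P2ry14*, at 5.83 ± 0.557 CPM per kb, overlapped with *P2ry2*, at 6.06 ± 0.661.

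**Figure D1:**
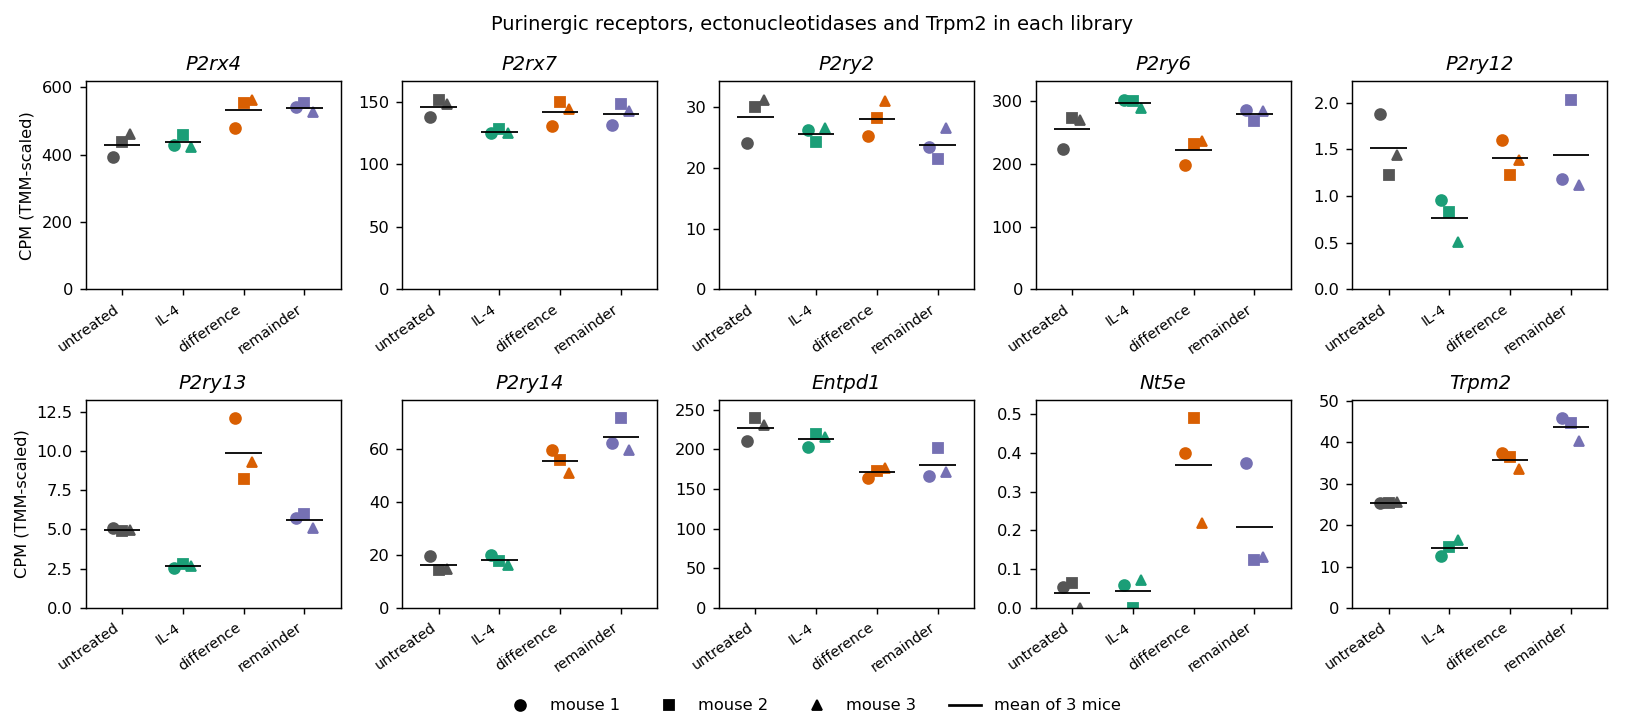
Level of each of the 10 genes in each library, in TMM-scaled CPM on linear axes that start at 0 and differ between panels. Symbols stand for mice and lines for the mean of 3 mice, and the *P2ry14* panel shows both Wnt3a parts between 50.97 and 71.47 CPM, above all untreated and IL-4 values.

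Macrophage markers were abundant in all samples, with a summed level of *Adgre1*, *Csf1r*, *Cd68*, *Itgam*, *Mertk*, *Fcgr1* and *Lyz2* between 43590 and 67680 CPM. Of the markers of other cells, *Fcer1a* and *Sall1* had 0 counts in every library, and *Ly6g*, *Ms4a1*, *Cd3e*, *Cd3g*, *Mcpt8* and *Gp1bb* had at most 3. A list of 4 platelet and megakaryocyte markers, 3 of them above that floor, summed to between 12.2 and 13.6 CPM in untreated cells and between 12.97 and 19.0 with IL-4, but to between 45.8 and 113.3 in the Wnt3a parts. A list of 3 microglial markers summed to between 1.18 and 1.32 CPM in untreated cells and to between 2.92 and 3.85 in the parts. The 4 mast cell and basophil markers, 2 of them at the floor, went from between 3.86 and 4.58 CPM in untreated cells to between 1.79 and 2.40 with IL-4 and between 1.49 and 3.11 in the parts, and 3 T cell markers, 2 of them at the floor, from between 3.66 and 4.18 to between 1.80 and 2.68 with IL-4. The 8 neutrophil markers, 1 of them at the floor, summed to between 39.3 and 49.6 CPM in untreated cells, 51.5 and 61.3 with IL-4, and 26.2 and 30.4 in the remainder. The 4 dendritic cell markers summed to between 1.32 and 2.10 CPM in untreated cells and 0.582 and 1.15 in the difference. Platelets and microglia are known to express *P2ry12*, and the part of such cells in the results below was not tested. In bulk samples, fewer cells of a type and less RNA per cell cannot be told apart.

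Of the 9 genes other than *Trpm2*, with *Nt5e* counted although it was below the filter, IL-4 alone changed 1. This was *P2ry13*, which fell, while IL-4 changed 3.4% of all 12421 genes (2.31% higher, 1.09% lower). Changes were called by the quasi-likelihood test of edgeR at a Benjamini-Hochberg adjusted p under 0.05. In the difference, *P2rx4*, *P2ry13* and *P2ry14* rose and *Entpd1* fell relative to untreated cells, that is 4 of 9, against 23.2% of all genes (11.8% higher, 11.4% lower). In the remainder, *P2rx4* and *P2ry14* rose and *Entpd1* fell, 3 of 9, against 25.3% of all genes (13.6% higher, 11.7% lower). Both parts were compared with the same untreated samples, so these counts are not independent. The median log2 fold change of the genes that could be fitted other than *Trpm2* was -0.12 with IL-4, -0.03 in the difference and 0.04 in the remainder, beside medians of all genes of -0.0030, -0.012 and -0.024.

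**Figure D2:**
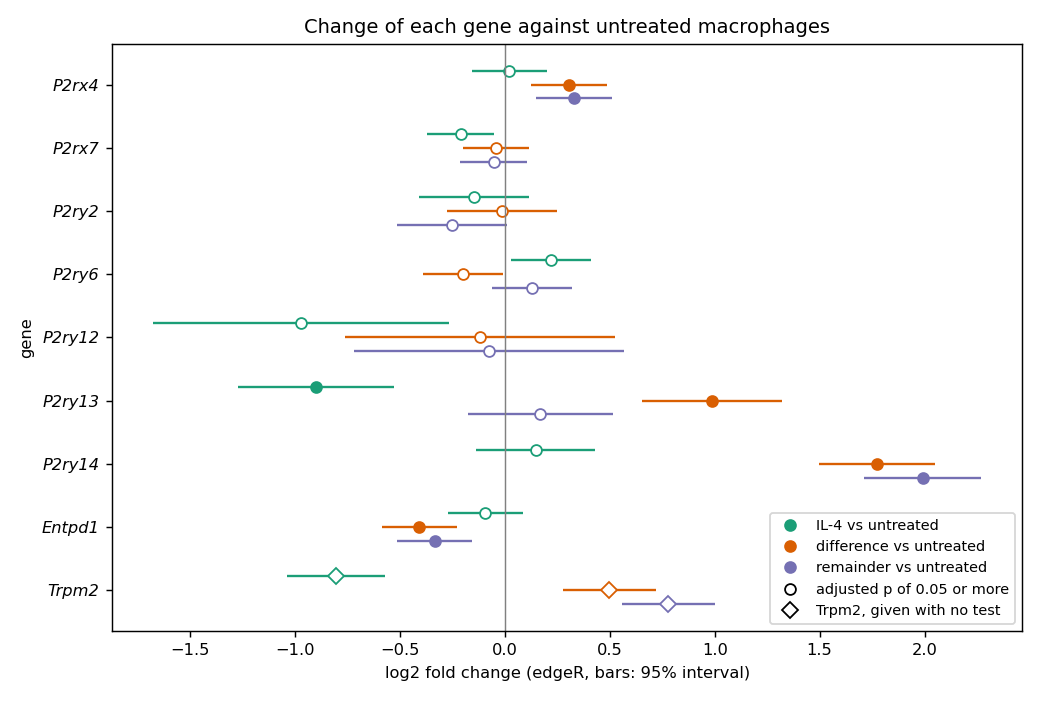
Log2 fold change against untreated cells of the 9 genes that passed the count filter, with 95% intervals from edgeR. Filled circles mark an adjusted p under 0.05, and diamonds mark *Trpm2*, which is shown with no test. *P2ry14* lies at 1.77 and 1.99 in the Wnt3a parts, and *P2ry13* and *Trpm2* lie on opposite sides of 0 in IL-4-treated cells and the difference.

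Among the ATP-gated channels, *P2rx4* was modestly higher in both Wnt3a parts and *P2rx7* was not called in any comparison. They are neighbors on the plus strand of chromosome 5 in mm10, *P2rx7* at chr5:122643911-122691432 and *P2rx4* at chr5:122707544-122729738, with 16.1 kb between them. *P2rx4*, which encodes a channel found largely on lysosomes and raised in activated macrophages and microglia, stood at 391.8, 436.8 and 460.2 CPM in untreated cells of mouse 1, 2 and 3. It stood at 427.5, 459.3 and 421.5 with IL-4, at 479.6, 552.1 and 561.9 in the difference, and at 539.8, 551.7 and 527.0 in the remainder. All values of both parts were above all untreated values, whereas the IL-4 and untreated values overlapped. On the log2 scale *P2rx4* changed by 0.31 ± 0.08 (SE; adjusted p = 0.017 from edgeR) in the difference and 0.33 ± 0.08 (adjusted p = 0.0099) in the remainder, higher in 3 of 3 mice in each, and differed by 0.02 with IL-4 (adjusted p = 0.95). The call in the difference was lost without mouse 2 (adjusted p = 0.12) or mouse 3 (0.13), or without the untreated library of mouse 1 (0.071) or the difference library of mouse 2 (0.068) or 3 (0.073). The call in the remainder was lost without mouse 3 (0.064).

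*P2rx7* stood at 138.0, 151.5 and 148.1 CPM in untreated cells, at 125.3, 128.1 and 124.7 with IL-4, at 131.0, 149.8 and 144.1 in the difference and at 131.4, 148.0 and 142.5 in the remainder. The IL-4 values were the lowest and did not overlap with the untreated ones, but the log2 fold change of -0.21 (95% interval -0.37 to -0.05) had an adjusted p of 0.18 from edgeR. In the difference and the remainder the log2 fold changes were -0.04 (-0.20 to 0.12) and -0.05 (-0.21 to 0.11), and both intervals span 0.

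The receptors for uridine and adenine nucleotides on chromosome 7 changed little against untreated cells. *P2ry6* lies at chr7:100937630-100974649 and *P2ry2*, whose receptor binds ATP and UTP and is known for guiding macrophages to dying cells, at chr7:100996568-101012866, both on the minus strand and 21.9 kb apart. *P2ry2* ranged from 21.39 to 31.17 CPM over the 12 libraries and was called in no comparison. Its largest shift against untreated cells was in the remainder, with 23.8 ± 2.59 against 28.4 ± 3.83 CPM (SD, n = 3) and a log2 fold change of -0.25 (95% interval -0.52 to 0.0090; adjusted p = 0.15 from edgeR). With total counts in place of TMM scaling this became -0.36 and passed the threshold (adjusted p = 0.027).

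*P2ry6*, whose receptor binds UDP and is known for promoting phagocytosis, showed its difference between the Wnt3a parts. It stood at 224.1, 272.6 and 269.3 CPM in untreated cells of mouse 1, 2 and 3, at 301.8, 299.5 and 289.3 with IL-4, at 198.8, 231.9 and 236.4 in the difference, and at 285.9, 267.7 and 284.7 in the remainder. In each mouse the remainder was above the difference, and the groups did not overlap. The log2 fold change of the remainder over the difference was 0.33 ± 0.09 (SE; adjusted p = 0.048 from edgeR). *P2ry6* and *P2ry13* were the 2 of 9 genes called between the parts, 1 higher and 1 lower in the remainder, against 5.25% of all genes (2.87% higher, 2.38% lower). The *P2ry6* call was close to the threshold and was lost with the mouse as a block (adjusted p = 0.059), without mouse 1 (0.15) or mouse 3 (0.38), and without any single IL-4 or difference library or the remainder library of mouse 1 or 3 (0.056 to 0.16). With IL-4 alone the log2 fold change was 0.22 (95% interval 0.03 to 0.41; adjusted p = 0.26), and all IL-4 values lay above all untreated values. In the difference it was -0.20 (-0.39 to -0.0080; adjusted p = 0.13), and this passed the threshold without the untreated library of mouse 1 (-0.29, adjusted p = 0.032) and with total counts in place of TMM scaling (-0.29, adjusted p = 0.0075).

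*P2ry14*, *P2ry13* and *P2ry12* form a cluster of related receptor genes on the minus strand of chromosome 3, all inside the gene *Med12l* on the opposite strand. In mm10 they lie at chr3:59113855-59153618, chr3:59207892-59210882 and chr3:59216272-59262871, with 54.3 kb between *P2ry14* and *P2ry13* and 5.39 kb between *P2ry13* and *P2ry12*. *Med12l* itself had between 1 and 18 counts per library, and 0.35% of the *P2ry12* exon bases and none of the other exon bases overlap with its exons. Their promoters are shown because these adjacent genes had unlike changes. The sequences are from RefSeq on GRCm38.p6, which has the coordinates of mm10, and run 5′ to 3′ on the strand of the gene from 250 bases before to 50 bases after the annotated start. Capitals mark matches to CTTTGA, the core bound by TCF/LEF factors, or to GAGGAA, the core bound by PU.1, on either strand. For *P2ry14*, which has several annotated starts, the first is shown, which holds no CTTTGA. Each of its starts holds GAGGAA or its complement, and the fourth holds CTTTGA or its complement as well, at -206 and -164.
P2ry14 promoter, chr3:59153443-59153742, minus strand: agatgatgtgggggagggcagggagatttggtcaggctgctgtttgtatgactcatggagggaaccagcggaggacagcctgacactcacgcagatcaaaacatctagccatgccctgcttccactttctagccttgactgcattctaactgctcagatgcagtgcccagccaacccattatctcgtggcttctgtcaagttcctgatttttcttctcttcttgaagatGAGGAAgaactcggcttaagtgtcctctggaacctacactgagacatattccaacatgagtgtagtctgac
P2ry13 promoter, chr3:59210833-59211132, minus strand: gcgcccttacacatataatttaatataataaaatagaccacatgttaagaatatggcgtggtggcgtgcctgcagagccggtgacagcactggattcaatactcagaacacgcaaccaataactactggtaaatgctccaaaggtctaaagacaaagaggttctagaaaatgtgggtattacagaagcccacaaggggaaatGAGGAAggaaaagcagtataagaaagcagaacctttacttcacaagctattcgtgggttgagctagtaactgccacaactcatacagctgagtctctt
P2ry12 promoter, chr3:59262936-59263235, minus strand: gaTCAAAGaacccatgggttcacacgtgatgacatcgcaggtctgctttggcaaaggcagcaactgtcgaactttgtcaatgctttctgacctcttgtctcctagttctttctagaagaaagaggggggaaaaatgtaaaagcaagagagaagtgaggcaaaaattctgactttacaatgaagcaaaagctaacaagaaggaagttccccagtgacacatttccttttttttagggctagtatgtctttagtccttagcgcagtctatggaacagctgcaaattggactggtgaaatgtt

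GAGGAA begins at position -21 from the start of *P2ry14* and at -48 from that of *P2ry13*, and the complement of CTTTGA begins at -248 in *P2ry12*. CTTTGA occurs in 16.0% and GAGGAA in 28.3% of 32851 promoters of this length, each counted alone. A gene with several starts, such as *P2ry14*, has more chances of a match. The spaced sites TTCNNNNGAA and TTCNNNGAA, which STAT factors bind and which share their ends with each other, occur in 6.95% and 8.3% of promoters and had no match in the 15 promoter sequences of the 9 genes found in the RefSeq table, all but *P2ry6*. These matches describe letters and not sites of binding.

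*P2ry14*, the receptor for UDP-glucose and other UDP-sugars, had the largest rise of the tested genes in both Wnt3a parts. It had 361, 225 and 234 counts in untreated cells of mouse 1, 2 and 3, which is 19.4, 14.47 and 14.68 CPM, and 20.08, 17.7 and 16.02 CPM with IL-4. It reached 59.52, 55.87 and 50.97 CPM in the difference, and 62.35, 71.47 and 59.72 CPM in the remainder. The untreated and IL-4 values overlapped, and every value of the parts was above all of them. The log2 fold change was 1.77 ± 0.13 (SE; adjusted p = 3.2e-07 from edgeR) in the difference and 1.99 ± 0.13 (adjusted p = 8.1e-08) in the remainder, or 3.42-fold and 3.98-fold, and both calls were kept under all alternatives run. With IL-4 alone it was 0.15 (95% interval -0.14 to 0.43; adjusted p = 0.70). Between the parts the remainder was higher in 3 of 3 mice, without passing the test (0.22, 95% interval -0.04 to 0.48; adjusted p = 0.35).

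*P2ry13*, an ADP receptor of myeloid cells, moved in opposite directions with IL-4 alone and in the difference. It had 95, 76 and 79 counts in untreated cells, or 5.106, 4.889 and 4.955 CPM. With IL-4 it had 2.517, 2.812 and 2.67 CPM, in the difference 12.08, 8.243 and 9.306, and in the remainder 5.714, 5.961 and 5.125. No group overlapped with another, and the remainder lay just above the untreated values. Its log2 fold change was -0.90 ± 0.17 (SE; adjusted p = 0.0083 from edgeR) with IL-4, lower in 3 of 3 mice, and 0.99 ± 0.16 (adjusted p = 3.6e-04) in the difference, higher in 3 of 3. In the remainder it was 0.17 (95% interval -0.18 to 0.51; adjusted p = 0.48), and the remainder was below the difference by a log2 fold change of -0.82 ± 0.15 (adjusted p = 0.0063). The IL-4 call was lost without mouse 1 (adjusted p = 0.057) or mouse 3 (0.23), and so was the call between the parts (0.078 and 0.22).

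*P2ry12*, an ADP receptor known from platelets and microglia, was near the limit of what these libraries measure, with 7 to 35 counts each. It stood at 1.881, 1.222 and 1.443 CPM in untreated cells, at 0.959, 0.8308 and 0.5051 with IL-4, at 1.603, 1.221 and 1.381 in the difference, and at 1.18, 2.028 and 1.117 in the remainder. All IL-4 values were below all others, and the other groups overlapped. The log2 fold change with IL-4 was -0.97 ± 0.33 (SE; 95% interval -1.68 to -0.27; adjusted p = 0.15 from edgeR), which did not pass the test. The parts differed from untreated cells by -0.12 (-0.76 to 0.53) and -0.08 (-0.72 to 0.57).

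*Trpm2* was lower with IL-4 alone and higher in both Wnt3a parts. It lies on the minus strand at chr10:77907722-77970563, and its promoter, printed on the same terms as those above, holds no match to any of the 4 motifs, which says nothing of the factors themselves.
Trpm2 promoter, chr10:77969823-77970122, minus strand: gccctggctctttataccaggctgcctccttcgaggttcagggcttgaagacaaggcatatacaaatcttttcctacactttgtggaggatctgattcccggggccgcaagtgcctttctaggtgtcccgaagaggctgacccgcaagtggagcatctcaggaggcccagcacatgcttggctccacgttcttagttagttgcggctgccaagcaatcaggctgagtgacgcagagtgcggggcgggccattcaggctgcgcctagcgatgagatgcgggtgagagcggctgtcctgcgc

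*Trpm2* had 470, 394 and 408 counts in untreated cells of mouse 1, 2 and 3, which is 25.26, 25.34 and 25.59 CPM. With IL-4 it had 208, 230 and 229 counts, or 12.47, 14.7 and 16.52 CPM. In the difference it had 37.49, 36.39 and 33.66 CPM, and in the remainder 45.77, 44.68 and 40.34. The 4 groups did not overlap, and the order was IL-4, untreated, difference, remainder in each mouse. Its log2 fold change was -0.81 ± 0.11 (SE) with IL-4, 0.50 ± 0.10 in the difference and 0.78 ± 0.10 in the remainder. The remainder was above the difference by 0.28 ± 0.10 and above IL-4 alone by 1.58 ± 0.11. When each mouse or library was left out in turn, the value with IL-4 ranged from -0.93 to -0.70, that in the difference from 0.46 to 0.55 and that in the remainder from 0.74 to 0.84.

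Of the nucleotidases, *Entpd1* fell in both Wnt3a parts, and *Nt5e* had at most 1 count per library without Wnt3a. *Entpd1*, on the plus strand at chr19:40612366-40741602, stood at 211.2, 239.0 and 231.0 CPM in untreated cells, at 203.3, 219.7 and 215.2 with IL-4, at 164.4, 172.7 and 176.4 in the difference, and at 165.8, 202.1 and 171.8 in the remainder. All values of the parts were below all untreated values, and the remainder of mouse 2 was close to them. The log2 fold change was -0.41 ± 0.08 (SE; adjusted p = 0.0028 from edgeR) in the difference and -0.34 ± 0.08 (adjusted p = 0.0087) in the remainder, or 0.75-fold and 0.79-fold, lower in 3 of 3 mice in each. With IL-4 it was -0.09 (95% interval -0.27 to 0.09). Without mouse 3 both calls were lost (adjusted p = 0.073 and 0.20).

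*Nt5e*, at chr9:88327197-88372092 on the plus strand, had 1, 1 and 0 counts in untreated cells and 1, 0 and 1 with IL-4, at most 3 counts in each library. In the difference it had 7, 8 and 3 counts and in the remainder 6, 2 and 2. By summed counts the difference was 8.90 times the untreated level (18 against 2 counts, exact 95% interval 2.13 to 79.1) and the remainder 4.88 times (10 against 2 counts, 1.04 to 45.8). These intervals cover counting error only, and the difference library of mouse 3 and the remainder libraries of mouse 2 and 3 lay within 3 counts as well.

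Set against IL-4 alone, the remainder showed 3 of 9 genes higher and 0 lower, against 20.3% of all genes called (10.6% higher, 9.67% lower). They were *P2rx4* (0.31 on the log2 scale, edgeR's adjusted p = 0.017), *P2ry13* (1.07, adjusted p = 4.4e-04) and *P2ry14* (1.84, adjusted p = 2.2e-07). *P2ry13* thus stood at 5.6 ± 0.430 CPM against 2.67 ± 0.147 (SD, n = 3). *Entpd1* was lower by a log2 fold change of -0.24 without passing the test (adjusted p = 0.057), and passed it with the mouse as a block (adjusted p = 0.037), with DESeq2 (0.040), and without the untreated library of mouse 1 (0.047) or the remainder library of mouse 2 (0.0068). The *P2rx4* call was lost without mouse 3 (0.16) or the IL-4 library of mouse 1 (0.054).

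Whether the IL-4 change differed with and without Wnt3a was asked under both assignments of the parts. The first assignment took the difference as the Wnt3a culture and the remainder as the culture with both agents. Here 0 of 9 genes were called by edgeR and 0 by DESeq2. The shares of all genes were 0.105% by edgeR (0.0403% higher, 0.0644% lower) and 1.33% by DESeq2. By edgeR 1 gene, *P2ry12*, had an unadjusted p under 0.05, beside 1576 of all 12421 genes. Under this first assignment *P2ry13* fell with IL-4 to a like extent without Wnt3a (-0.90) and with it (-0.82), with an interaction of 0.08 (95% interval -0.41 to 0.58). With these roles exchanged, *P2ry13* and *P2ry6* were called, 2 of 9, against 7.33% of all genes (2.91% higher, 4.42% lower). *P2ry13* then fell with IL-4 alone and rose with IL-4 on top of Wnt3a, with an interaction of 1.72 ± 0.23 (SE; adjusted p = 2.5e-04 from edgeR), and *P2ry6* had an interaction of -0.55 ± 0.13 (adjusted p = 0.015). The *P2ry6* call was lost without mouse 1 (0.079) or mouse 3 (0.17). *Trpm2*, chosen by its interaction and given with no test, had a value of 1.09 under the first assignment and 0.52 under the other. Both values are formed from its fall with IL-4 (-0.81) and the smaller gap between the parts (0.28). The positive sign under both restates this difference in size and is not separate support.

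**Figure D3:**
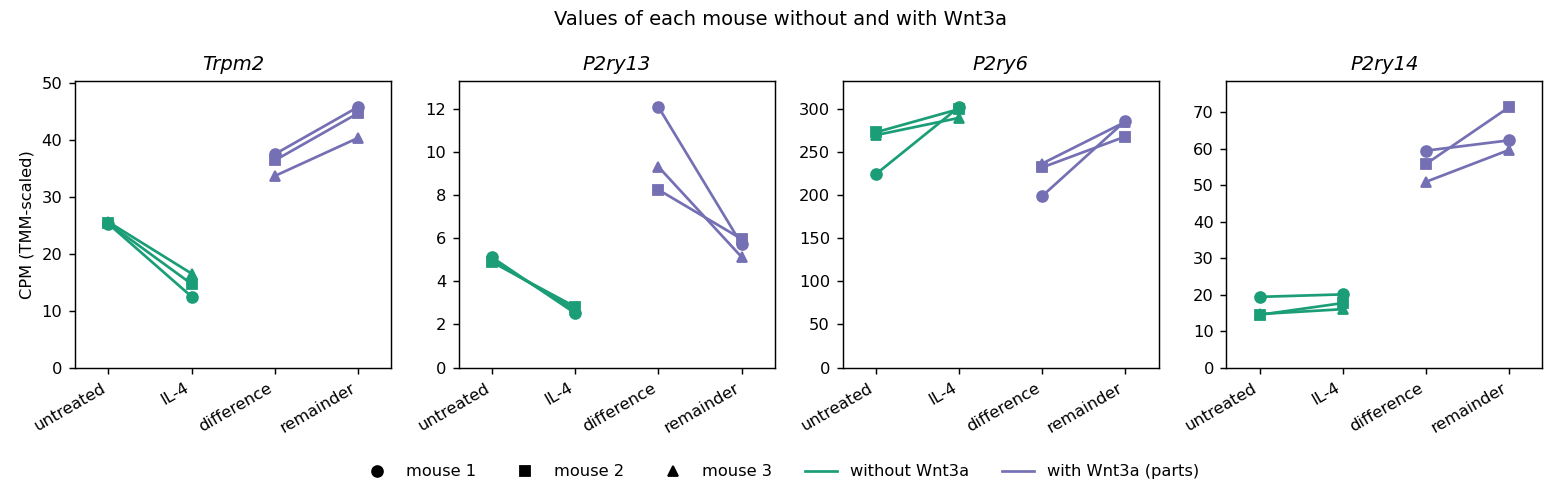
Levels of *Trpm2*, *P2ry13*, *P2ry6* and *P2ry14* in each mouse, in TMM-scaled CPM, without Wnt3a (untreated and IL-4, green) and in the Wnt3a parts (difference and remainder, purple). Lines join samples of 1 mouse. *Trpm2*, shown with no test, stood on average at 25.4 CPM in untreated cells, 14.6 with IL-4, and 35.9 and 43.6 in the parts.

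The wider purine pathway was described with 59 other genes, of which 58 were in the table and 36 passed the count filter. IL-4 called 3 of the 36 (2 higher, 1 lower), beside 3.4% of all genes. The difference called 15 (10 higher, 5 lower), beside 23.2% of all genes (11.8% higher, 11.4% lower), and the remainder 18 (12 higher, 6 lower), beside 25.3% (13.6% higher, 11.7% lower). Between the parts 7 were called, 3 higher and 4 lower in the remainder, beside 5.25% of all genes (2.87% higher, 2.38% lower). These counts include *Cd38*, *Adora2a* and *P2rx5*, called higher in both parts, and between the parts they include *P2rx5* and *Cd38*. None of these genes would have passed the filter without the Wnt3a parts. The counts that involve the parts are therefore raised by them, and no excess over the shares of all genes is read from these counts. Of the other P2 receptors 4 of 10 passed the filter. *P2ry1*, an ADP receptor gene, stood at 8.60 ± 0.990 CPM in untreated cells, 20.5 ± 0.688 with IL-4, 2.11 ± 0.153 in the difference and 5.54 ± 0.697 in the remainder (SD, n = 3). It rose with IL-4 (1.25 on the log2 scale, edgeR's adjusted p = 4.5e-05) and fell in both parts (-2.02, adjusted p = 3.9e-07, and -0.64, adjusted p = 0.0029), the reverse of *P2ry13* in the first pair of comparisons. As 22% of the 50-base stretches of *P2ry1* also lie in the antisense gene *Gm37035*, reads of these genes may not be told apart, since whether counting used the strand was not given in the sources used here. *P2rx5*, a little studied ATP-gated channel gene, rose from 0.252 ± 0.107 CPM to 1.52 ± 0.137 in the difference and 3.65 ± 0.580 in the remainder. It had 7, 3 and 3 counts in untreated cells and passed the filter only with the Wnt3a parts, so no p-value is given.

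Of the 4 adenosine receptors 3 passed the filter, but *Adora2a* did so only with the Wnt3a parts and its calls are not counted. Of the others, *Adora2b* was called higher with IL-4 and in the remainder, and *Adora3* in the difference. The shares of all genes called higher were 2.31% with IL-4, 11.8% in the difference and 13.6% in the remainder. *Adora2a*, whose receptor is known for damping inflammatory responses, rose from 0.371 ± 0.210 CPM to 5.25 ± 0.732 in the difference and 6.01 ± 0.851 in the remainder (log2 fold changes 3.77 and 3.97). It had 9, 2 and 8 counts in untreated cells and 11, 8 and 9 with IL-4. As it passed the filter only with the Wnt3a parts, no p-value is given for it. *Adora2b* stood at 2.62 ± 0.520 CPM in untreated cells, 5.08 ± 0.669 with IL-4, 3.16 ± 0.243 in the difference and 6.44 ± 1.29 in the remainder. *Adora2b* was called by edgeR with IL-4 (0.96, adjusted p = 0.016) and in the remainder (1.3, adjusted p = 2.4e-04), but not in the difference (0.28, adjusted p = 0.38). *Adora3*, which shares 19.8% of its 50-base stretches with *Tmigd3*, was called in the difference (0.90, adjusted p = 0.022) and in neither other comparison with untreated cells. Of the adenosine handling genes, 6 of 10 in the table passed the filter, and in the remainder the transporter genes *Slc29a2* (0.79) and *Slc29a3* (0.52) rose and *Slc29a1* (-0.44) fell.

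Of 11 other genes, those of the *Entpd* and *Enpp* families and *Alpl*, 4 passed the filter. *Entpd7* rose (0.41 in the difference, 0.30 in the remainder) while *Enpp1* fell (-0.66 and -0.33), as did *Entpd6* in the difference (-0.41). *Entpd4* had 0 counts, but 100% of its 50-base stretches are found in other genes, most in *Entpd4b*, so its level cannot be judged. Of the ATP release genes 4 of 6 passed, and the pannexin gene *Panx1* fell in the remainder (-0.50) and the vesicular nucleotide transporter gene *Slc17a9* in the difference (-0.45). All 7 genes of ADP-ribose metabolism passed, *Cd38* only with the Wnt3a parts. Those that changed were *Bst1* and *Cd38*, whose products make cyclic ADP-ribose and ADP-ribose from NAD. *Bst1* rose from 5.81 ± 0.865 CPM to 34.1 ± 5.37 in the difference and 15.9 ± 1.38 in the remainder (log2 fold changes 2.55 and 1.45, adjusted p = 2.5e-08 and 4.6e-06 from edgeR). *Cd38* had at most 3 counts in each untreated library, and by summed counts it was 33.1 times higher in the difference (201 against 6 counts, exact 95% interval 15.0 to 91.3, counting error only) and 14.6 times in the remainder (90 against 6 counts, 6.47 to 40.9). Both were lower in the remainder than in the difference, whereas *Trpm2*, whose product ADP-ribose opens, stood higher there.

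All 7 genes of the P2X7 and NLRP3 output passed the filter, 4 of which were called in each part, beside 23.2% of all genes in the difference and 25.3% in the remainder. *Nlrp3* fell with IL-4 (-0.76, adjusted p = 1.2e-04 from edgeR), in the difference (-0.29, adjusted p = 0.023) and in the remainder (-0.84, adjusted p = 5.8e-06). *Il1b* rose from 21.1 ± 3.48 CPM to 208.3 ± 34.4 and 70.5 ± 34.1 in the same parts (3.30 and 1.74), and the inflammasome adaptor *Pycard* (0.29 and 0.42) and the pore-forming *Gsdmd* (0.48 and 0.48) rose in both. *P2rx7* itself was not called, as given above. In the receptor cluster on chromosome 3, *Gpr171* rose in the difference (0.92, adjusted p = 0.032) and the remainder (1.5, adjusted p = 0.0010), as *P2ry14* did.

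**Figure D4:**
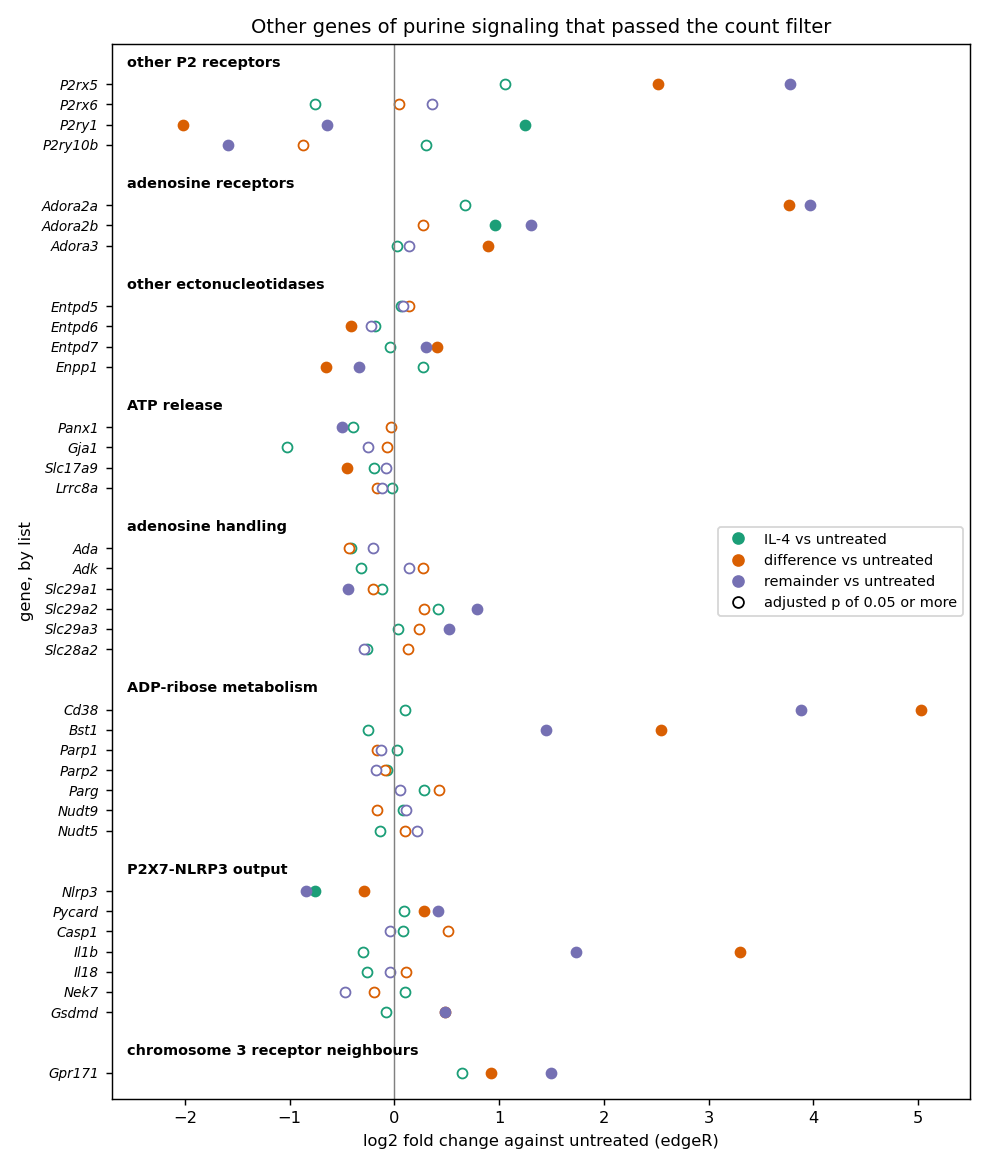
Log2 fold change against untreated cells of the 36 other genes of purine signaling that passed the count filter, by list, with filled circles for an adjusted p under 0.05 from edgeR. The highest values are those of *Cd38*, of *Adora2a*, at 3.77 and 3.97 in the Wnt3a parts, and of *P2rx5*, at 3.78 in the remainder. The untreated counts of *Cd38* were at most 3 per library, so that its fitted value depends on the prior count. None of these genes would have passed the count filter without the Wnt3a parts.

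The genes whose levels followed these most closely over the 12 libraries were found by Pearson correlation of log2 CPM among 12421 genes, as a description, since the libraries share groups and mice. For *Trpm2* they were *Zmynd15* (r = 0.97) and *Epsti1* (r = 0.96). For *P2ry14* they were *4933430I17Rik* (r = 0.99) and *Gbp2* (r = 0.99), and for the sparsely counted *P2ry12* they were *Gm43814* (r = 0.88) and *Pih1d2* (r = 0.87).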

How the data were processed

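RNA was sequenced as single reads from BMDMs of 3 mice in 4 conditions, 12 samples in all. The authors checked reads with FastQC 0.11.7, trimmed them with Trimmomatic 0.36, mapped them to mm10 with STAR 2.6.0a, indexed them with SAMtools 1.9 and deposited raw counts per gene from HTSeq-count 0.11.1, without normalization. Although the methods name UCSC genes, rows carry Ensembl identifiers, and a symbol was found for 48058 of 48526. The table held 0 columns beyond those used.

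The difference and remainder of each mouse were solved from the count columns and replaced them in the fit. The quasi-likelihood test of edgeR 4.0.16 (R 4.3.3) was run on all 12 libraries with TMM scaling and without the mouse as a term, over 12421 genes that reached 10 counts in 3 or more libraries. The threshold was 0.05 for Benjamini-Hochberg adjusted p-values. On simulated IL-4 against untreated counts (12265 genes), 177 of 200 changed genes were recovered among 185 called, and an unchanged comparison gave 0 calls. The changed genes were drawn above a minimum level, with preset changes larger than those called for *P2rx4*, *P2ry6* and *Entpd1*. This recovery therefore does not carry over to such small changes or to sparsely counted genes such as *P2ry12*. Alternatives were DESeq2 1.42.0, its size factors or total counts as scaling, other count filters (at least 1 count, or 1 CPM in 3 libraries), only the groups compared, the columns as labelled, a replicate block for the mouse, and leaving out a mouse or a library.

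The sample titles give the mouse, so same-numbered samples come from the same animal. Across genes, deviations from the group means had correlations of -0.42 to 0.45 in 18 same-mouse pairs, 6 of them over 0.1. The genes and lists were chosen with earlier results of these data known. Named genes are the 10 genes, those of the purine lists, and, for *Trpm2* and the tested gene with the largest change in each comparison with untreated cells, the 2 genes with the most similar levels. Positions, exon lengths and stretches of 50 bases found in several genes were taken from GENCODE for mm10, promoters from RefSeq. *Pnp* of the purine lists was not used here. Some genes of the lists are not reported here.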

Additional observations from a re-analysis of the deposited data

Results flagged for a closer look

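The interaction of IL-4 and Wnt3a was flagged for 3 genes, of which *P2ry13* and *P2ry6* were called under only 1 assignment of the parts. With the remainder taken as Wnt3a, the interaction was 1.72 on the log2 scale for *P2ry13* and -0.55 for *P2ry6*, both called by edgeR's interaction test (adjusted p = 2.5e-04 and 0.015). Under the other assignment neither was called (0.08 and 0.11, adjusted p = 0.93 and 0.78). With the difference taken as Wnt3a, *Trpm2* was lower with IL-4 than in untreated cells in all 3 mice and was higher in the remainder than in the difference in all 3 mice. Its interaction value was 1.09, and 0.52 under the other assignment, and both were formed from the same changes. Neither value was tested, since the gene was chosen by its interaction. The labels do not say which assignment holds.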

How the results depend on the processing

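No called value changed sign under the alternatives run, while some uncalled values near 0 did, such as *P2rx4* with IL-4 (0.02, and -0.03 with total counts) and *P2ry12* in the remainder (-0.53 to 0.24 with a mouse or library left out). Against 3 of 9 genes called in the remainder, the columns as labelled gave 5, beside 29.3% of all genes. Against 3 called between remainder and IL-4 they gave 7, beside 24.0% of all genes. *Nt5e*, below the filter in the main fit, passed it in these columns, where the reads of the parts are summed. The counts from the columns may therefore hold *Nt5e* and are not over the same tested genes. Between remainder and difference, 2 genes were called, 1 when only these groups were fitted, 0 in the columns as labelled, and 1 with the mouse as replicate block. The shares of all genes were 5.25%, 3.54%, 0.0% and 4.48% in the same order. The block changed 2 of 56 calls, both given above, and no other. The columns as labelled share reads, so that the spread between them is understated and their contrast narrowed by construction. For *Trpm2* they gave a remainder minus difference of 0.04 and an interaction of 0.86. *P2ry13* passed the test in the remainder there (0.62, adjusted p = 0.0059 from edgeR), as did *P2ry6* (-0.25, adjusted p = 0.020), *P2ry12* (0.87, adjusted p = 0.027) and *Entpd1* (-0.29, adjusted p = 0.0065) against IL-4.

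With a mouse or library left out, the genes called were 0 to 1 with IL-4, 2 to 4 in the difference, 1 to 3 in the remainder, 0 to 2 between the parts, 2 to 4 between remainder and IL-4, 0 under the interaction with the difference as Wnt3a and 1 to 2 with the remainder as Wnt3a. Fits of single groups were not run for the interactions, nor the columns for the interaction with the remainder as Wnt3a.

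Total counts as scaling moved the median log2 fold change of all genes to -0.10 in the difference and -0.13 in the remainder. The share of higher genes among those called fell from 50.69% to 33.57% in the difference, from 53.78% to 35.57% in the remainder and from 68.01% to 53.81% with IL-4. Over all genes the count called with IL-4 was 422, against 812 with all genes of at least 1 count and 708 in the columns. Between the parts it was 652, against 1454, 0 and, with only these groups, 422. Under the interaction with the difference as Wnt3a it was 13, against 575, 142 and, by DESeq2, 165, and under the other interaction 910, against 1505 with all genes of at least 1 count. With a mouse or library left out, the genes called over all genes ranged from 77 to 532 with IL-4, 1220 to 3188 in the difference, 1375 to 3807 in the remainder, 97 to 1188 between the parts, 1043 to 3052 between remainder and IL-4, 0 to 43 under the first interaction and 265 to 1459 under the other. The lowest counts came without mouse 3, and for the first interaction also without the IL-4 library of mouse 2 or the untreated or remainder library of mouse 3. The highest came without mouse 2 or its remainder library. At 7 to 35 counts per library for *P2ry12* and at most 8 for *Nt5e*, depth limits what can be said of these genes.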
